A study of Mus musculus with 6 samples.

Results

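A set of 9 genes that mark fibroblasts of the adventitia, the outer layer of the arterial wall, were followed through RNA-seq of mouse abdominal aorta. They are *Pdgfra*, *Cd248*, *Scara5*, *Dpp4*, *Ly6a*, *Pi16*, *Dpt*, *Clec3b* and *Serpinf1*. They were taken by gene symbol without a filter on their values, but earlier results of these data were known when they were chosen. They make up 9 of the 55426 genes in the deposited table, each on a single row. The series compared 3 control mice with 3 mice that lack *Prdm16*, a transcriptional regulator, in vascular smooth muscle cells (VSMCs), and 1 RNA-seq library was deposited for each. Levels are given in TPM, a measure of transcript abundance that is corrected for transcript length and adds up to one fixed total per library.

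Knockout mice, called *Prdm16* SMKO, carried floxed *Prdm16* alleles and *Myh11*-CreERT2, a tamoxifen-dependent Cre recombinase under the promoter of a smooth muscle myosin gene. Control mice carried *Myh11*-CreERT2 as well, so that both groups share the transgene, which lies on the Y chromosome and restricts the study to males. The mice were of the C57BL/6J strain and were given tamoxifen at 75 mg/kg/day for 5 days at an age of 8 to 10 weeks. Aneurysm experiments on such mice began 2 weeks after tamoxifen, while the interval for the RNA was not stated. Adventitial fibroblasts are therefore not the cells in which Cre was driven, and the RNA came from bulk abdominal aorta, in which fewer cells of a type and less RNA per cell cannot be told apart. The sources used here do not say whether the mice came from separate litters or days, and the p-values measure only the spread between these samples.

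Adventitial fibroblasts build and maintain the collagen-rich outer sheath of the artery, and they are known for taking part in repair, fibrosis and inflammation of the vessel wall. *Pi16*, *Dpp4*, *Ly6a* and *Cd248* are known from a progenitor-like fibroblast state that is found in the adventitia and the fascia of many organs. None of the 9 genes belongs to fibroblasts alone. *Ly6a* is also made by endothelial cells, *Cd248* by pericytes and *Serpinf1* by adipocytes, so their level in whole tissue is a sum over cell types.

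None of the 8 genes that could be tested was called different between *Prdm16* SMKO and control mice. The count was 0 at an adjusted p under 0.05 (limma, Benjamini-Hochberg over the 15775 genes whose mean reached 0.5 TPM), where 0.355% of all tested genes were called. It was also 0 at an unadjusted p under 0.05, which 8.74% of all tested genes reached (4.88% higher and 3.85% lower), and 0 for groups that do not overlap, against 12.8% of all tested genes (7.02% higher and 5.76% lower). *Dpp4* was below the expression minimum, with a mean of 0.255 TPM. The fold changes of the 8 genes had a median of 0.06 on the log2(TPM + 0.5) scale, and the median over all tested genes was 0.02. Their 95% intervals had a median full width of 1.03 log2 units from lower to upper limit, so these 6 libraries fix the size of a difference only loosely.

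Among the receptors at the cell surface, *Pdgfra* encodes the alpha receptor for platelet-derived growth factors, which drives the growth of mesenchymal cells. It lies at chr5:75152292-75198215 on the plus strand (GRCm38, GENCODE M21). In the order of replicates 1, 2 and 3, which is kept below, its level was 19.12, 14.79 and 20.63 TPM for the control mice and 15.59, 26.68 and 17.38 TPM for the *Prdm16* SMKO mice. *Prdm16* SMKO replicate 2 was the highest of the 6 and control replicate 2 the lowest, and the groups overlapped. Group means were 18.2 ± 3.03 TPM and 19.9 ± 5.95 TPM (SD, n = 3 each), and the log2 fold change was 0.10 with an SE of 0.23 and a 95% interval from −0.42 to 0.62 (limma, adjusted p = 0.972).

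*Cd248* encodes endosialin, a transmembrane protein of mesenchymal cells that binds the vessel matrix protein multimerin 2. This single-transcript gene, at chr19:5068078-5070682 on the plus strand, was the one with the lowest fold change of the 8. Its values were 30.68, 37.08 and 30.56 TPM in the control mice and 19.07, 33.9 and 22.19 TPM in the *Prdm16* SMKO mice. The *Prdm16* SMKO replicates 1 and 3 lay below every control library, while replicate 2 lay between the control values. The log2 fold change was −0.42 with an SE of 0.22 and an interval from −0.92 to 0.09 (limma, adjusted p = 0.699), and the exact two-sided permutation test gave p = 0.3, where 0.1 is the smallest it can give with 3 libraries against 3.

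*Scara5* encodes a scavenger receptor that takes up ferritin, at chr14:65666403-65764826 on the plus strand. It measured 37.7, 28.93 and 45.23 TPM in control and 25.28, 57.19 and 39.22 TPM in *Prdm16* SMKO mice. Both its highest and its lowest library were *Prdm16* SMKO mice, replicates 2 and 1, with a 2.26-fold distance between them that exceeded the 1.56-fold range among the controls. The log2 fold change was 0.07 ± 0.29 (SE), with a 95% interval from −0.60 to 0.73 and an adjusted p of 0.990 by limma.

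*Dpp4* encodes a dipeptidyl peptidase of the cell surface that trims chemokines and incretin hormones, at chr2:62330073-62412231 on the minus strand. It was listed at 0.22, 0.19 and 0.06 TPM in the control and at 0.28, 0.61 and 0.17 TPM in the *Prdm16* SMKO mice. These values overlap and lie far below those of the other 8 genes, of which the least abundant had a mean of 18.2 TPM in control mice. With the expression minimum dropped, its log2 fold change was 0.35 (limma, adjusted p = 0.846).

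*Ly6a* encodes Sca-1, a lipid-anchored surface protein that interferons can induce and that is used to sort vascular progenitor cells. The gene is at chr15:74994877-74998031 on the minus strand, and no 151-base stretch of its exons is shared with an exon of another annotated gene. The control mice had 46.63, 69.51 and 56.1 TPM and the *Prdm16* SMKO mice 57.81, 89.47 and 71.89 TPM. The 2 highest libraries were *Prdm16* SMKO mice, while replicate 1 of that group lay among the controls. Their means were 57.4 ± 11.5 TPM and 73.1 ± 15.9 TPM (SD, n = 3 each), and the log2 fold change was 0.34 with an SE of 0.21 and an interval from −0.14 to 0.82 (limma, adjusted p = 0.773). The exact two-sided permutation test gave p = 0.2.

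The other 4 genes encode secreted proteins. *Clec3b* encodes tetranectin, a plasma and matrix protein that binds plasminogen, and it was the most abundant of the 9 on the length-corrected TPM scale, above 98.6% of all tested genes. It lies at chr9:123150946-123157432 on the plus strand. Levels were 344.5, 292.03 and 380.27 TPM in the control mice and 228.45, 458.29 and 360.39 TPM in the *Prdm16* SMKO mice. The *Prdm16* SMKO values enclosed all 3 control values, and the log2 fold change was −0.01 with an SE of 0.25 and an interval from −0.58 to 0.56 (limma, adjusted p = 0.998).

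*Serpinf1* encodes PEDF, a serpin without protease inhibition that is known for blocking angiogenesis, at chr11:75409769-75422701 on the minus strand. Its control values were the tightest of the set, at 188.43, 180.57 and 197.3 TPM, while the *Prdm16* SMKO mice spread from 148.69 TPM in replicate 1 to 258.34 TPM in replicate 2, with 194.01 TPM in replicate 3. The group means of 189 ± 8.37 and 200.3 ± 55.1 TPM (SD, n = 3 each) differed by less than the spread of the *Prdm16* SMKO mice. The log2 fold change was 0.05 with an interval from −0.41 to 0.51 (limma, adjusted p = 0.989).

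*Pi16* encodes peptidase inhibitor 16, a marker of the progenitor-like adventitial state, at chr17:29317680-29330593 on the plus strand. It was measured at 60.2, 62.45 and 73.77 TPM in control and at 50.77, 87.01 and 66.07 TPM in *Prdm16* SMKO mice. As for *Clec3b*, the *Prdm16* SMKO values reached beyond the controls on both sides, and the log2 fold change was 0.02 with an interval from −0.45 to 0.50 (limma, adjusted p = 0.994).

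*Dpt* encodes dermatopontin, a small matrix protein that binds decorin and promotes collagen fibril assembly, at chr1:164796644-164824266 on the plus strand. It had the highest fold change of the 8. Levels were 116.12, 118.36 and 150.58 TPM in the control mice and 127.09, 248.56 and 191.8 TPM in the *Prdm16* SMKO mice. *Prdm16* SMKO replicates 2 and 3 were above all controls, while replicate 1 lay between them. Averages were 128 ± 19.3 TPM and 189 ± 60.8 TPM (SD, n = 3 each), and the log2 fold change was 0.51 with an SE of 0.24 and an interval from −0.04 to 1.07 (limma, adjusted p = 0.627). Here too the exact two-sided permutation test gave p = 0.2.

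**Figure D1:**
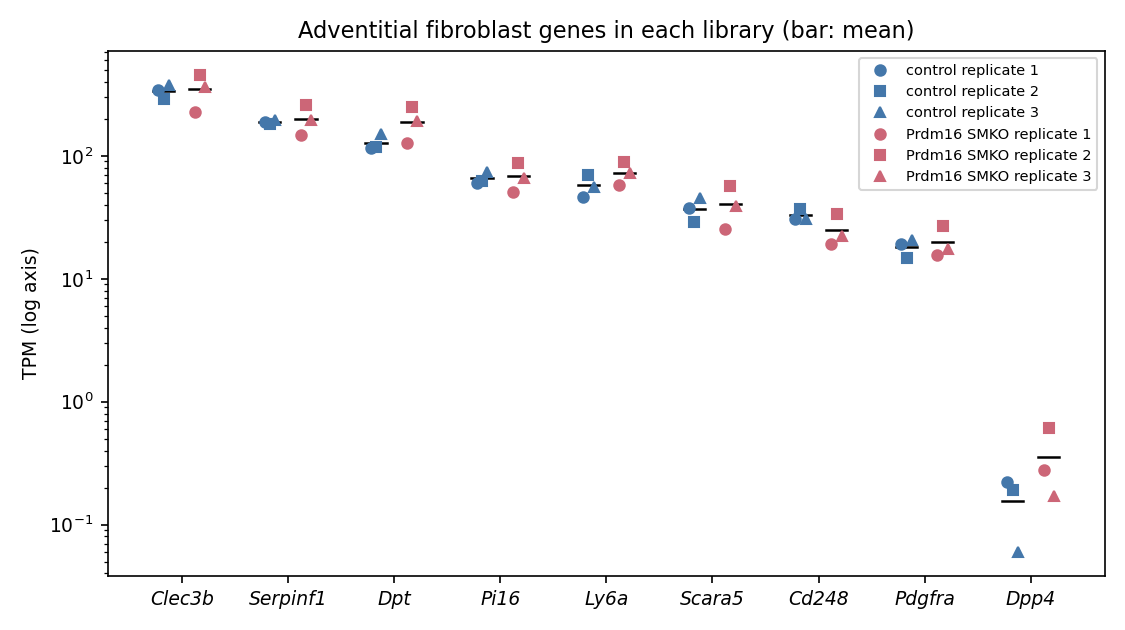
TPM (log axis) of the 9 adventitial fibroblast genes in each of 3 control and 3 *Prdm16* SMKO libraries, with 1 symbol per replicate and a bar at the group mean. *Clec3b* is highest and *Dpp4*, with a mean of 0.255 TPM, lies far below the rest, and the points of the 2 groups overlap for every gene.

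The order of the levels was nearly the same in all libraries. On the TPM scale, *Clec3b* exceeded *Serpinf1*, *Serpinf1* exceeded *Dpt*, and *Dpt* exceeded *Pi16* in 6 of 6 libraries, and *Cd248* exceeded *Pdgfra* in 6 of 6. The narrowest of these steps was between *Serpinf1* and *Dpt*, whose ratio was 1.01 in *Prdm16* SMKO replicate 3. *Pi16* and *Ly6a* changed places between libraries, with a ratio of 0.878 to 1.31, and so did *Scara5* and *Cd248*, with a ratio of 0.780 to 1.77, so that neither pair has a fixed order. The annotation places exons of other genes on the opposite strand over parts of *Pdgfra*, *Pi16* and *Dpp4*. They share 2.12%, 1.09% and 1.33% of the 151-base windows of these genes, and the strand setting of the authors' counting is not given in the sources used here.

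The 9 genes shared a pattern across the libraries that did not follow the genotype. *Prdm16* SMKO replicate 2 was the highest library for 8 of the 9 genes, the exception being *Cd248* with control replicate 2. *Prdm16* SMKO replicate 1 was the lowest for 5 of them, namely *Pi16*, *Clec3b*, *Serpinf1*, *Scara5* and *Cd248*. Between these libraries of the same group, levels differed 1.55-fold for *Ly6a*, the narrowest, and 2.26-fold for *Scara5*, the widest. Averaged over the 8 tested genes, the log2 level relative to the mean of the 6 libraries was −0.38 in *Prdm16* SMKO replicate 1, 0.48 in replicate 2 and 0.03 in replicate 3, against −0.10, −0.11 and 0.09 in control replicates 1, 2 and 3.

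The spread within a group was correspondingly wider among *Prdm16* SMKO mice. The SD of the log2 level, as a median over the 8 genes, was 0.200 for the control and 0.411 for the *Prdm16* SMKO mice, and it was larger in *Prdm16* SMKO mice for 8 of 8 genes, compared with 46.3% of all tested genes. The difference depended on the scaling. With median-of-ratios size factors the medians were 0.358 and 0.411, with the larger SD in *Prdm16* SMKO mice for 7 of 8 genes and 59.5% of all genes, and without mitochondrial and 45S ribosomal transcripts they were 0.314 and 0.442, for 8 of 8 genes and 60.5% of all genes. The genes move together, so these counts are not independent of each other, and the difference in spread was not tested.

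Shares of the library taken by other transcripts moved with this pattern only in part. Mitochondrial transcripts took 27.3% of the TPM in *Prdm16* SMKO replicate 1 and 15.8% in replicate 2, the highest but one and the lowest of the 6. The highest share, 27.4%, was in *Prdm16* SMKO replicate 3, where the mean of the tested genes was 0.03. The 45S ribosomal RNA locus accounted for 15.7% in *Prdm16* SMKO replicate 1 and 29.9% in replicate 2. Its lowest and highest shares were in control replicates 2 and 3, at 15.6% and 31.4%. *Prdm16* SMKO replicates 1 and 2 still stood apart when both classes were removed, at −0.45 and 0.48. The number of genes above 0 TPM was 20332 to 22100 per library, and the depth of single libraries is unknown, the submitters giving only an average over the libraries.

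Markers of other cell types were set beside the same libraries. Of 6 endothelial genes, among them *Pecam1* and *Egfl7*, 4 were higher and 2 lower in mean in *Prdm16* SMKO mice. Summed over these 6 genes, the level was 261 to 327 TPM in control and 289 to 488 TPM in *Prdm16* SMKO mice, with the maximum in replicate 2. Summed over 7 macrophage genes, among them *Lyz2* and *C1qa*, it was 70.2 to 109.6 TPM in control and 110.3 to 201 TPM in *Prdm16* SMKO mice, again highest in replicate 2, with 7 of 7 genes higher in mean, 5 at an unadjusted p under 0.05 (4.88% of all tested genes in this direction) and 0 called by limma. The 6 adipocyte genes summed to 338 to 782 TPM in control and 605 to 2019 TPM in *Prdm16* SMKO mice, with *Cfd* and *Adipoq* the most abundant, and were highest in *Prdm16* SMKO replicate 3, not replicate 2. The 5 skeletal muscle genes, led by *Ckm* and *Mylpf*, summed to 4.74 to 10.9 TPM in control and 1.85 to 46.2 TPM in *Prdm16* SMKO mice, with their maximum in replicate 1. *Dbh*, which encodes the noradrenaline-making enzyme of sympathetic neurons and chromaffin cells, was at 84.61 TPM in *Prdm16* SMKO replicate 1 and at 13.8 TPM in control replicate 2, and it was listed at 0 in the other 4 libraries. *Th*, the enzyme upstream of it and named after its values were seen, was at 67.56 and 8.43 TPM in the same libraries and at most at 0.13 TPM in the others. The 5 mesothelial genes, led by *Krt19* and *Lrrn4*, were near 0, at sums of 0.03 to 0.64 TPM. T cell genes (*Cd2*, *Cd3g*) and B cell genes (*Cd79a*, *Cd79b*) summed to at most 3.31 TPM. The part of these cell types in the levels of the 9 genes was not tested.

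**Figure D2:**
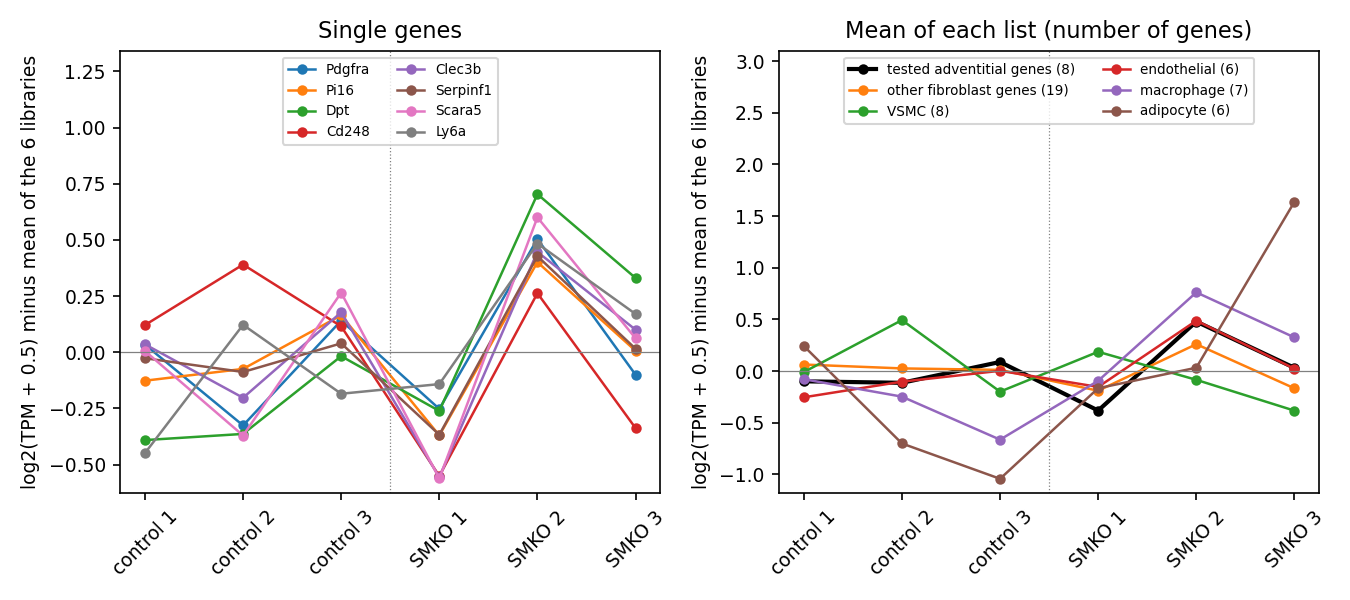
Log2(TPM + 0.5) minus its mean over the 6 libraries, for the 8 tested genes (left) and as the mean of marker lists with their number of genes (right), with lines joining the values of 1 gene or list for legibility since replicates have no order. *Pi16*, *Clec3b*, *Serpinf1* and *Scara5* are lowest in *Prdm16* SMKO replicate 1 and highest in replicate 2, with list means of −0.38 and 0.48, while adipocyte genes are highest in replicate 3.

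How closely each gene followed the common pattern was measured as the root mean square distance between its centred log2 values and the mean of the 8 genes over the 6 libraries. The distance was 0.0436 for *Serpinf1*, 0.050 for *Pi16*, 0.108 for *Clec3b*, 0.129 for *Pdgfra* and 0.161 for *Scara5*. It was greater for *Dpt*, *Ly6a* and *Cd248*, at 0.229, 0.234 and 0.293, and the median over 9661 other genes that averaged 5 TPM or more was 0.357. Each of the 8 genes is part of the mean it is compared with. Outside the set, the 5 nearest genes were *Ints6*, *Smoc2*, *Utp23*, *Sh2b3* and *Bicc1*, at 0.0415 to 0.0843. *Ints6*, at 0.0415, lay nearer to the mean than any of the 8 genes, so the pattern is not particular to the set. It stood at 6.38, 6.85 and 8.03 TPM in control and 5.42, 10.17 and 7.24 TPM in *Prdm16* SMKO mice. *Smoc2*, which encodes a secreted calcium-binding matrix protein, stood at 48.18, 44.07 and 49.17 TPM in control and 39.05, 68.68 and 54.47 TPM in *Prdm16* SMKO mice.

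*Dpt* and *Cd248* departed from the other genes in opposite directions, which is seen in ratios within a library, where a factor common to all genes of that library cancels. The ratio of *Dpt* to *Cd248* was 3.78, 3.19 and 4.93 in the control mice and 6.66, 7.33 and 8.64 in the *Prdm16* SMKO mice. All 3 *Prdm16* SMKO mice lay above all 3 control mice, with means of 3.97 ± 0.882 and 7.55 ± 1.01 (SD, n = 3 each), a 1.92-fold difference between the geometric means, and the exact two-sided permutation test gave p = 0.1, the smallest it can give. Leaving out 1 library at a time, the log2 difference was 0.80 to 1.11, compared with 0.94 over all 6. The pair joins the genes with the highest and the lowest fold change of the set, a choice that favours such a separation.

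Of the 28 pairs among the 8 genes, 10 had ratios that did not overlap between the groups, which is 35.7%, against 20.3% of all pairs of tested genes above 0 in every library. They comprised 6 of the 7 pairs with *Dpt* and 5 of the 7 pairs with *Cd248*, and 0 of the 15 pairs without either gene. *Serpinf1* over *Dpt* was 1.62, 1.53 and 1.31 in control and 1.17, 1.04 and 1.01 in *Prdm16* SMKO mice. *Serpinf1* over *Cd248* was 6.14, 4.87 and 6.46 in control and 7.80, 7.62 and 8.74 in *Prdm16* SMKO mice. *Cd248* was lower relative to *Ly6a*, at 0.658, 0.533 and 0.545 against 0.330, 0.379 and 0.309. Ratios that share a gene are not independent, the pair was singled out after the values were seen, and the count is a description.

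**Figure D3:**
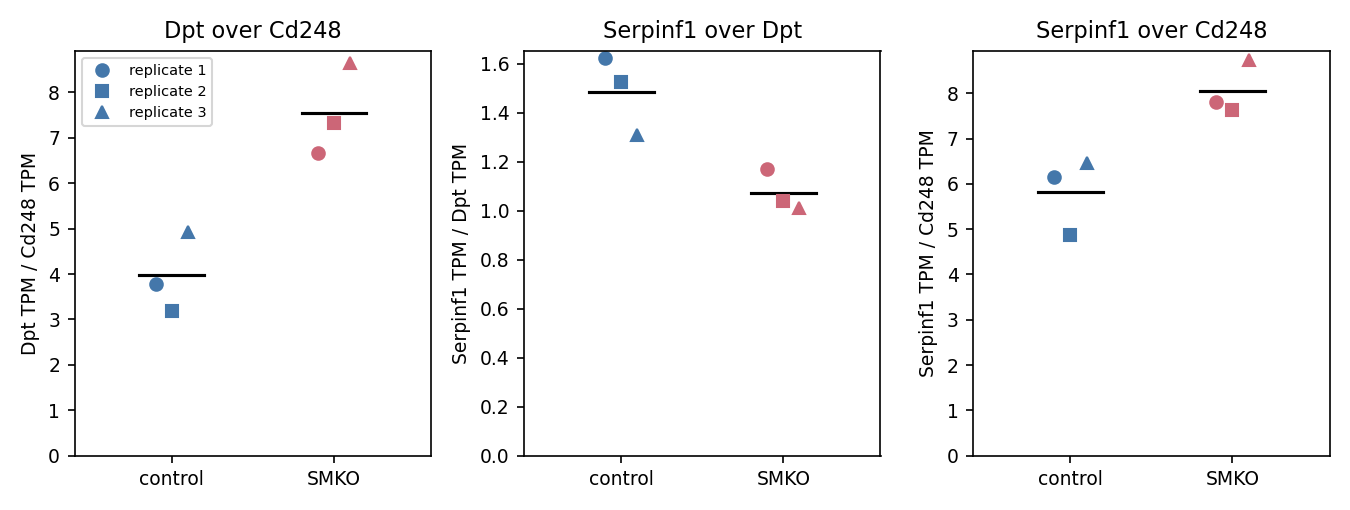
Ratios of TPM within each library for *Dpt* over *Cd248*, *Serpinf1* over *Dpt* and *Serpinf1* over *Cd248*, with 1 symbol per replicate and a bar at the group mean. The *Dpt* to *Cd248* ratio is 3.19 to 4.93 in control and 6.66 to 8.64 in *Prdm16* SMKO mice, and the groups do not overlap in any panel.

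To set the 9 genes against fibroblast RNA in general, the mean log2 level of 19 other fibroblast genes was removed from each library, a step added after the data were seen. This mean was 0.06, 0.03 and 0.01 in the control mice and −0.19, 0.26 and −0.17 in the *Prdm16* SMKO mice. Relative to it, *Dpt* had a log2 fold change of 0.58 with an SE of 0.22 and a 95% interval from 0.08 to 1.08 (limma, adjusted p = 0.536). Its groups overlapped, with an exact permutation p of 0.2, and it was the 1 gene of the 8 at an unadjusted limma p under 0.05, against 7.87% of all tested genes on this scale. *Cd248* had −0.35 with an interval from −0.77 to 0.07 (limma, adjusted p = 0.774), and its groups did not overlap, as for 11.8% of all tested genes on this scale (8.27% higher and 3.58% lower). *Ly6a* had 0.41 (adjusted p = 0.742), and the other 5 genes had 0.06 to 0.17. The median over all tested genes also rose on this scale, to 0.09 from 0.02 with TPM as deposited, so small values above 0 are not particular to these genes. The count called was 0 of 8, against 0.247% of all tested genes.

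**Figure D4:**
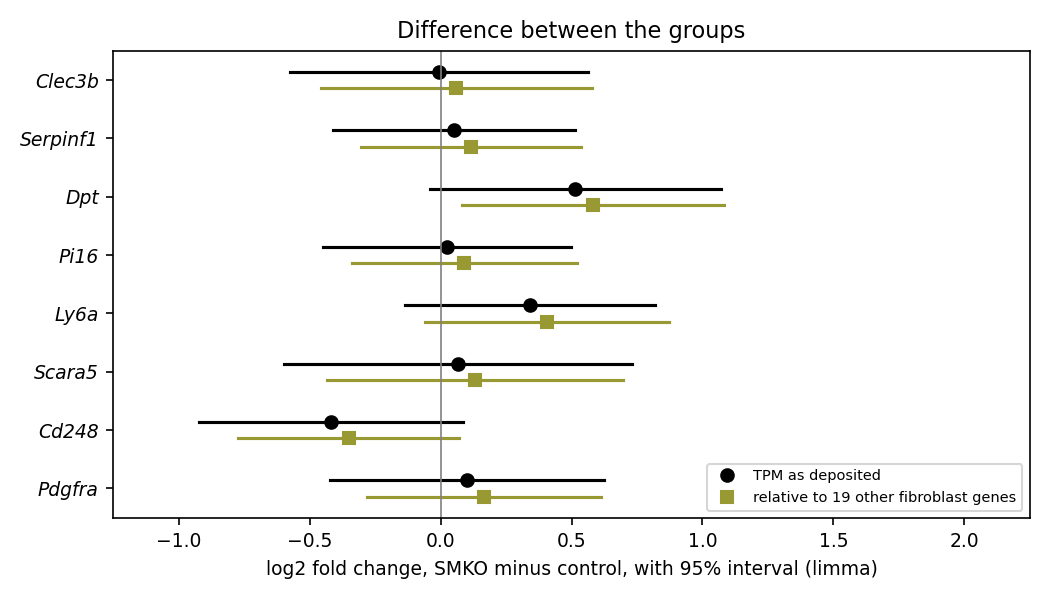
Log2 fold change, *Prdm16* SMKO minus control, with its 95% interval by limma for the 8 tested genes, from TPM as deposited (circles) and relative to 19 other fibroblast genes (squares). Of the 16 intervals, only that of *Dpt* relative to the other fibroblast genes, from 0.08 to 1.08, lies on one side of 0, and its adjusted p was 0.536.

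The sign of the fold change of 5 of the genes turned on single libraries. Without *Prdm16* SMKO replicate 2, the log2 fold changes of *Pdgfra*, *Pi16*, *Serpinf1* and *Scara5* were −0.13, −0.17, −0.15 and −0.22, opposite in sign to those over all libraries, and without *Prdm16* SMKO replicate 1 that of *Clec3b* was 0.27. Single control libraries turned signs as well. Without control replicate 1, *Pi16* and *Clec3b* had −0.03 and 0.0094, without control replicate 2, *Pdgfra*, *Pi16* and *Scara5* had −0.04, −0.0064 and −0.10, and without control replicate 3, *Clec3b* had 0.08. *Dpt* and *Ly6a* stayed above 0 and *Cd248* below 0 under every other scaling, filter and variance model tried and with each library left out, with ranges of 0.29 to 0.77, 0.18 to 0.60 and −0.65 to −0.25.

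The labels were checked on *Prdm16*, which stood at 33.42, 36.83 and 30.77 TPM in control and 20.75, 27.67 and 14.77 TPM in *Prdm16* SMKO mice. All 3 *Prdm16* SMKO values were below all controls, with a log2 fold change of −0.70 (limma, adjusted p = 0.376, exact permutation p = 0.1). The gene total includes exons outside the floxed part and RNA of cells without Cre. *Myh11*, the gene whose promoter drives Cre, overlapped between the groups, at 1691 to 3242 TPM and 1488 to 2507 TPM, and the sum of 8 VSMC genes, of which *Acta2* and *Tagln* were the most abundant, was 15144 to 25680 TPM and 11780 to 18057 TPM.

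Proteins that bind or act with the 9 gene products were taken from a fixed list of 16 genes, of which 14 could be tested. By limma 0 were called, 7 were higher and 7 lower in mean, with a median log2 fold change of 0.02. Groups did not overlap for *Plat*, which was higher, and for *Pdgfd* and *Fth1*, which were lower. Of all tested genes, 7.02% were higher and 5.76% lower without overlap. Among the ligands of the PDGF receptors, *Pdgfa* had a log2 fold change of −0.36, *Pdgfb* of −0.04, *Pdgfc* of 0.08 and *Pdgfd*, which acts on the beta receptor, of −0.37 (limma, adjusted p = 0.556). The beta receptor *Pdgfrb* itself had −0.23. The tetranectin partner *Plat*, tissue plasminogen activator, stood at 19.35, 26.11 and 17.72 TPM in control and 38.92, 43.79 and 35.27 TPM in *Prdm16* SMKO mice. The groups did not overlap, and the log2 fold change was 0.90 with an SE of 0.18 (limma, adjusted p = 0.106). It was called higher with size factors, with quantile normalization, without mitochondrial and 45S transcripts and with array weights.

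For the remaining partners, the endosialin ligand *Mmrn2* had 0.50, and the ferritin chains *Ftl1* and *Fth1*, cargo of the SCARA5 receptor, had 0.27 and −0.20. The PEDF receptor candidates *Plxdc2* and *Pnpla2* had −0.08 and 0.48, and *Cxcl12*, a chemokine cut by DPP4, had 0.37. None of these had an adjusted p under 0.713. For *Pnpla2* the groups overlapped, at 68.08 to 134.16 TPM in control. *Prdm16* SMKO replicates 1 and 2 were at 100.03 and 84.14 TPM, and only replicate 3, at 284.53 TPM, was above the controls. No 151-base stretch of the *Ly6a* exons is shared exactly with an exon of another annotated gene. The gene has neighbours of the same family, which arose by duplication. Of 9 such genes 3 were tested and 2 were listed at 0 in all libraries. *Ly6c1* had a log2 fold change of 0.45 and *Ly6e* of 0.53 (limma, adjusted p = 0.476 and 0.565), while *Ly6c2*, at a low level and named after its values were seen, had 0.04 (adjusted p = 0.994).

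Other fibroblast genes were measured in full, at 19 of 19 above the minimum. In mean, 9 were higher and 10 lower, with 0 called and a median of −0.02. Groups did not overlap for 2 higher and 4 lower genes, against 7.02% and 5.76% of all tested genes. Among genes of this list that averaged 5 TPM or more, those with the largest differences pointed both ways. *Col14a1*, a collagen of the fibril surface, was at 45.09, 49.33 and 44.59 TPM in control and at 83.11, 101.9 and 75.1 TPM in *Prdm16* SMKO mice, with no overlap and a log2 fold change of 0.89 ± 0.16 (SE, limma, adjusted p = 0.0666). *Twist2*, a mesenchymal transcription factor, and *Htra3*, a secreted serine protease, had −0.68 and −0.60 (adjusted p = 0.344 and 0.428). *Col14a1* was called higher with size factors, with quantile normalization, without mitochondrial and 45S transcripts, with robust variances and with array weights.

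In the list of 16 other genes of the progenitor-like state, 15 were tested, 8 were higher and 7 lower in mean, and 0 were called. Groups did not overlap for 4 higher and 3 lower genes, and the same number in each direction reached an unadjusted limma p under 0.05, which is 7 of 15 against 12.8% and 8.74% of all tested genes. *Limch1* and *Efhd1* had log2 fold changes of −0.79 and −0.97 (limma, adjusted p = 0.139 and 0.150) without overlap of the groups. Among the higher genes without overlap, *Cd55*, a regulator of complement, stood at 2.97, 3.2 and 3.47 TPM in control and 5.46, 5.36 and 5.9 TPM in *Prdm16* SMKO mice, with a log2 fold change of 0.71 (adjusted p = 0.212). *Smpd3*, *Dact2* and *Ly6c1* had 0.94, 0.89 and 0.45 (adjusted p = 0.307, 0.531 and 0.476). *Dact2* was near the floor, with means of 0.253 TPM in control and 0.917 TPM in *Prdm16* SMKO mice. It passed the minimum of 0.5 TPM only through the *Prdm16* SMKO libraries, so its place in the counts above is no support for a difference. *Cd55*, *Smpd3* and *Dact2* were named after their values were seen. With size factors 2 genes of the list were called lower, with quantile normalization or without mitochondrial and 45S transcripts 1, and with array weights 2 higher and 2 lower. *Uchl1* had 0.95 (adjusted p = 0.779) with overlap, and it is also a neuronal gene. In the list of fibroblast activation genes 14 of 15 were tested, 6 were higher and 8 lower, and 0 were called. There was no overlap for 4 genes of the list, all lower, against 5.76% of all tested genes in this direction. *Fn1* (fibronectin) and *Postn* (periostin) had −0.74 and −0.60 (adjusted p = 0.367 and 0.437), and *Sfrp1*, a Wnt antagonist, had 0.81 (adjusted p = 0.648). The groups of *Sfrp1* overlapped, at 9.71, 7.74 and 13.18 TPM in control and 13.69, 35.58 and 11.49 TPM in *Prdm16* SMKO mice. The list medians of 0.02 and −0.04 lay near the 0.02 of all tested genes.

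Interferon response and immediate-early genes, which fibroblasts share with the other cells of the wall, had larger median differences than the 9 genes. Both lists were chosen with earlier results of these data known. Their directions and the contrast with the 9 genes are therefore a description and no independent test. Of 20 interferon response genes 20 had the higher mean in *Prdm16* SMKO mice, as had 54.2% of all tested genes, and their median log2 fold change was 0.76. An unadjusted limma p under 0.05 was reached by 12 of them (4.88% of all tested genes in this direction). Of the list 1 gene was called higher (0.184% of all tested genes), *Rtp4* at 1.30 (limma, adjusted p = 0.0405). *Oasl2*, *Ifit3* and *Igtp* had 1.51, 1.21 and 1.04 (adjusted p = 0.0750, 0.192 and 0.109). *Ly6a*, which interferons can induce, had 0.34 in the same libraries. Of 15 immediate-early genes 15 were lower in mean, with a median of −1.29, and 6 were called lower (0.171% of all tested genes), namely *Nr4a1* at −2.45, *Arc* at −2.00, *Atf3* at −1.66, *Nr4a2* at −1.40, *Fosb* at −1.36 and *Egr3* at −1.29 (limma, adjusted p of 0.00762 to 0.0414). *Fos* had −2.23 (adjusted p = 0.357). Both counts depended on the model. The immediate-early list had 4 to 6 calls with size factors, quantile normalization, the removal of mitochondrial and 45S transcripts or another pseudocount, 3 to 5 relative to the other fibroblast genes, 9 with array weights, 2 without a variance trend, 1 with a replicate block and 0 with no expression minimum. The interferon list had 1 to 4 calls under the first group of these settings and 10 with array weights. It had 0 relative to the other fibroblast genes, without a variance trend, with a replicate block and with no expression minimum. Fewer immediate-early genes were called with 5 libraries. With 1 library left out, the immediate-early list had 0 calls without control replicate 2, 1 without control replicate 1, 2 without control replicate 3 and 3 without any single *Prdm16* SMKO library, and the interferon list had 0 or 1.

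**Figure D5:**
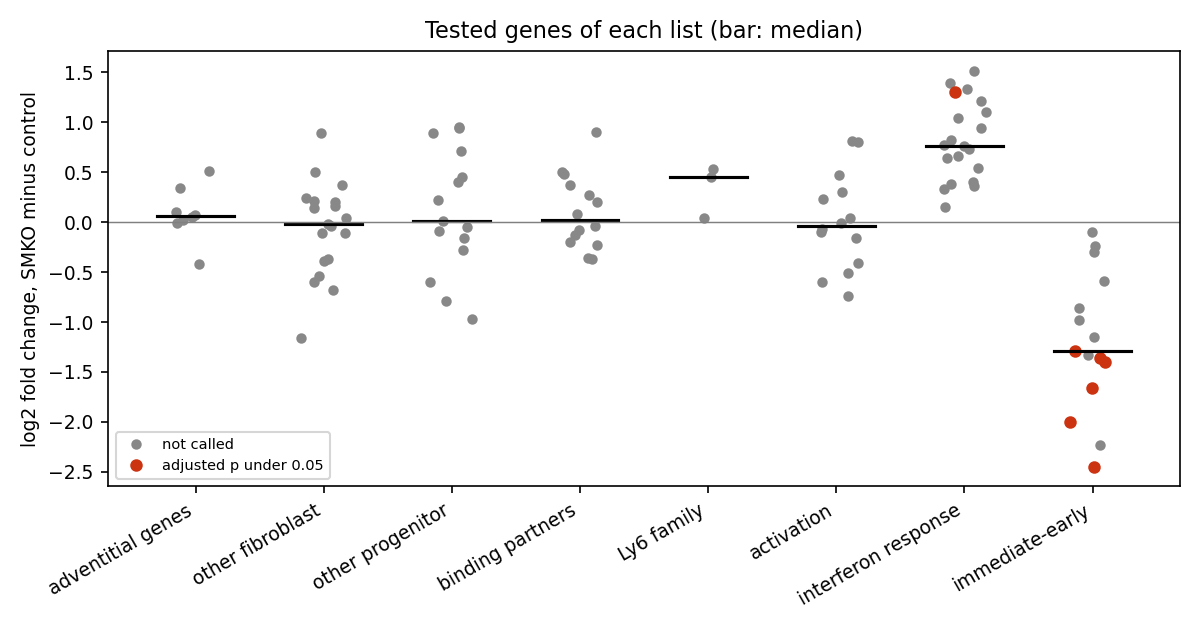
Log2 fold change, *Prdm16* SMKO minus control, of each tested gene in the adventitial set and 7 gene lists, with a bar at the median and called genes (adjusted p under 0.05, limma) in red. The 8 adventitial genes lie around 0 with a median of 0.06, the interferon response list lies above 0 with 1 called gene and the immediate-early list below 0 with 6.

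Promoters of the genes were read from RefSeq (GRCm38.p6) as the 250 bases before the annotated start, which were at hand for 5 of the 9 genes, *Pdgfra*, *Pi16*, *Dpt*, *Serpinf1* and *Dpp4*. Both strands were searched for a TATA box (TATAAA), a GC box (GGGCGG), an AP-1 site (TGANTCA), an E-box (CANNTG) and the CArG box of smooth muscle genes. *Dpt*, the gene with the highest fold change, and *Pdgfra*, which followed the common pattern, are shown with the E-boxes in capitals, since these were the only matches in both.
*Dpt*, chr1:164796413-164796662, plus strand: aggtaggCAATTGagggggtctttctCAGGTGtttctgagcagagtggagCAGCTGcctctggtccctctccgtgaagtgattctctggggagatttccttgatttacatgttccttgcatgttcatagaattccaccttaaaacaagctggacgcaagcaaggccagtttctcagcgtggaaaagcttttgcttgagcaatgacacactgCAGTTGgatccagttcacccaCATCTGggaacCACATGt
*Pdgfra*, chr5:75152001-75152250, plus strand: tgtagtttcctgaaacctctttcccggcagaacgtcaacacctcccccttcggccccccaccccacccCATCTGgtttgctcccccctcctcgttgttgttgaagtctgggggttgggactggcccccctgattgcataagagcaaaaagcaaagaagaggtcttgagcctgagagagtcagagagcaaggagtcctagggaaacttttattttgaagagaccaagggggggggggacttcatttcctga

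The 250 bases of *Dpt* held 6 E-boxes, a number that 0.274% of the 32851 mouse promoters in the same table reach or exceed. *Serpinf1* held 4 (3.84%), *Pdgfra* and *Dpp4* held 1 each (66.2%), and none was found for *Pi16*. The RefSeq starts of *Pi16*, *Dpt* and *Serpinf1* lie inside the longer GENCODE genes. Part or all of these windows, with the E-boxes at the end of the *Dpt* window, therefore lies within the annotated gene. *Dpp4*, the least expressed, was the only one with a TATA box, a motif present in 12.4% of all promoters. No GC box, AP-1 site or CArG box was matched in the 5 windows, where 32.7%, 6.75% and 1.47% of all promoters hold them. The G and C content was 43.6% to 54.4%, around the median of 52.4% for all promoters. These matches describe the letters of the windows, and no binding was measured in these libraries.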

How the data were processed

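RNA of abdominal aortas, 3 control and 3 *Prdm16* SMKO libraries, was selected for polyadenylated RNA and sequenced as 151 bp read pairs. The authors deposited TPM values for 55426 genes, and the submitters' processing notes name STAR 2.7.8a, RSEM 1.3.3, cutadapt 2.3 and GRCm38. The annotation is not given in the sources used here. TPM keeps no depth, so no counting error was computed, and a gene's TPM moves with the share of other transcripts.

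Log2(TPM + 0.5) of the 15775 genes that averaged 0.5 TPM or more was compared between the groups with limma 3.58.1 (R 4.3.3), a linear model with trended variances, two-sided, and Benjamini-Hochberg adjustment over all tested genes. Genes were called at an adjusted p under 0.05. The fit was tested on simulated data. Single genes and ratios were given exact permutation tests. Figures were made with Python 3.11.15 and matplotlib 3.10.9.

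The 9 genes and the lists were chosen with earlier results of these data known. By rule the text names the 9 genes, list genes that were called or among the 3 largest fold changes at 5 TPM or more, partners at 5 TPM or more, the 2 most abundant markers of a cell type, the 5 nearest genes by profile, *Prdm16* and *Myh11*. A further list of markers is reported only in part. The alternatives were other scalings, pseudocounts of 0.1 and 1, no minimum or a minimum of 2 TPM, other variance models, array weights, a replicate block and each library left out.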

Additional observations from a re-analysis of the deposited data

How the results depend on the processing

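Under 17 other settings and 8 added after the data were seen (scaling by other fibroblast genes), the count of the 9 genes called stayed at 0. The count at an unadjusted p under 0.05 was 0 and became 2 with array weights, 2 with a replicate block, 1 relative to the mean and 1 relative to the median of the other fibroblast genes, and 0 to 1 with 1 library left out, on either scale. Over all tested genes the count called was 56 and became 153 with size factors, 129 with quantile normalization, 123 without mitochondrial and 45S transcripts, 10 with no expression minimum, 33 without a variance trend, 112 with robust variances, 494 with array weights, 4 with a replicate block and 31 relative to the median of the other fibroblast genes; the cause was not tested. With 1 library left out it was 5 to 61, with 5 without control replicate 2, 17 without control replicate 1 or 3 and 28 without *Prdm16* SMKO replicate 2, and relative to the other fibroblast genes it was 6 to 50. Calls split into 29 higher and 27 lower, 60 and 93 with size factors and 46 and 83 with quantile normalization. The log2 fold change of *Clec3b*, −0.01, turned sign with quantile normalization (0.060), without mitochondrial and 45S transcripts (0.0090), relative to the mean (0.059) and relative to the median (0.078) of the other fibroblast genes. With 1 library left out, log2 fold changes ranged from −0.23 to 0.27 for *Clec3b*, −0.17 to 0.22 for *Pi16*, −0.13 to 0.25 for *Pdgfra*, −0.22 to 0.36 for *Scara5* and −0.15 to 0.25 for *Serpinf1*, and relative to the other fibroblast genes from −0.06 to 0.26 for *Clec3b* and −0.03 to 0.35 for *Scara5*. The sources used here do not say whether replicate numbers pair the mice. The deviations of same-numbered libraries correlated at −0.131, −0.110 and 0.019, and control replicate 2 correlated best with *Prdm16* SMKO replicate 1 (0.242). With 3 libraries per group, such correlations cannot decide whether mice were paired. With 3 mice per group and unknown depth, differences that lie within the 95% interval of a gene could not be told apart.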

Other observations

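*Pdpn*, which encodes podoplanin, a mucin-like protein of activated fibroblasts, lymphatic endothelium and mesothelium, was singled out among the other fibroblast genes after the values were seen, since its mean of 2.37 TPM was too low for the rule that names genes. It stood at 4.11, 2.6 and 3.71 TPM in control and 1.07, 1.47 and 1.25 TPM in *Prdm16* SMKO mice, with no overlap between the groups and a log2 fold change of −1.16 with an SE of 0.25 (limma, adjusted p = 0.121). *Col1a1*, the main fibrillar collagen chain, also chosen after the values were seen, had means of 476 ± 26.8 TPM and 334 ± 84.8 TPM (SD, n = 3 each), and its log2 fold change was −0.54 (limma, adjusted p = 0.447). *Dcn*, which encodes the decorin that dermatopontin binds, had means of 496 ± 77.2 TPM and 585 ± 191 TPM with overlapping groups and a log2 fold change of 0.20 (limma, adjusted p = 0.923).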
